A study of Mus musculus with 2 samples.

Results

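Type I interferon response genes, those whose transcripts rise after interferon-α or interferon-β binds its receptor, were followed in mouse splenic natural killer (NK) cells. The set was a list of 42 gene symbols that covers antiviral effectors, nucleic acid sensors, the transcription factors of the pathway, interferon-inducible GTPases and a chemokine. Of the 42, 41 were measured among the 32285 genes counted, and Mx1 was not analysed here. Genes were matched to the list by symbol alone.

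The cells were sorted by flow cytometry from spleens of control mice and of mice under dietary restriction (DR), and each group was represented by 1 droplet-based single-cell RNA library of transcript 3' ends. Strain, sex, age, number of mice, length of the restriction and the sorting gate are not given in the labels, and no genetic change or other agent is named for either group. With 1 library per group there was no replicate check and no test was possible. Counting found 44526828 unique molecular identifiers (UMIs, each a single captured transcript) on 5702 cell barcodes in control and 42134212 UMIs on 6287 barcodes in DR, and 13 barcode sequences occurred in both. After filtering, 5207 control and 5801 DR cells were analysed, of which 4573 and 4511 were NK-like. Ncr1, a gene of NK cells, was at 1221 and 1051 UMIs per 1000000 (CPM) in the NK-like cells, as the label has it, while Cd3e of T cells was at 0.055 and 1.79 CPM. Smaller classes were ILC1-like cells (274 and 404), B-like cells (115 and 435) and T-like cells (3 and 277), all named from clusters made without the interferon genes. Ncr1 did not tell NK-like from ILC1-like cells, where it was at 1390 and 1294 CPM. Eomes was at 331 and 323 CPM in NK-like cells against 25.5 and 30.9 CPM in ILC1-like cells. A level below is the CPM of a class, that is its summed UMIs per 1000000 UMIs of the same cells, and it was not divided by transcript length because each UMI marks a transcript end. Every interval is given at 95%, reflects the counting of UMIs alone and understates the error of a gene whose UMIs lie in few cells.

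Interferon-α and interferon-β signal through a receptor of the subunits Ifnar1 and Ifnar2 and the kinases Jak1 and Tyk2, which activate Stat2. Stat2 and Irf9 act in a complex that binds the interferon-stimulated response element in promoters, whereas the gamma-activated site is known from genes induced by interferon-γ. NK cells are known to respond to type I interferon during viral infection, and a low tonic signal keeps many of these genes expressed in uninfected animals. Several of the genes belong to families that lie side by side in the genome.

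The promoter sequences show how the response element is placed in genes that differ widely in level. Promoters from RefSeq on GRCm38.p6, each covering 250 bases before and 50 bases after a start site, were found for 33 of the 41 genes. Those of Ifi27l2a, Usp18, Rtp4, Zbp1, Ifi204, Parp9, Parp14 and Dhx58 were not used here. The response element, searched on both strands as GAAA, any 2 bases and GAAA again with overlaps allowed, was present in 18 of the 33 genes (54.5%), against 3.99% of all 27025 genes in the table. The gamma-activated site, searched as TTC, any 3 bases and GAA, was present in 6 of the 33 (18.2%), against 9.55% of all genes. A match is a string of letters and not a measured binding site. The stretches below run 5′ to 3′ on the strand of the gene, end before the start site and carry the element in capitals. Cxcl10, Ifit3b and Ifit1 had the largest log2 ratios of cells rich in these transcripts over other NK-like cells, as a mean of both libraries, with Ifit3b resting on 4 DR UMIs. The others were chosen after their values were seen, Ifit3 because it is a near copy of Ifit3b, Isg15 and Rsad2 as classical effectors, and Ifi203 and Trim30a as genes of high level.
Cxcl10 (chr5:92349078-92349117, minus strand): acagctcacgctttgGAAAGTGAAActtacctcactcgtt
Ifit1 (chr19:34640770-34640828, plus strand): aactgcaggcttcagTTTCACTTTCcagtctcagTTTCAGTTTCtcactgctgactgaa
Ifit3 (chr19:34583358-34583431, plus strand): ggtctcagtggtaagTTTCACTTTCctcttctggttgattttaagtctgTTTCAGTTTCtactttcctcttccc
Ifit3b (chr19:34607754-34607827, plus strand): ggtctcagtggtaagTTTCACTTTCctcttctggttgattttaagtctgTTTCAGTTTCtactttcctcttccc
Isg15 (chr4:156200860-156200911, minus strand): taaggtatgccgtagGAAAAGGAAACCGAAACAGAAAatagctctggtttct
Rsad2 (chr12:26456548-26456587, minus strand): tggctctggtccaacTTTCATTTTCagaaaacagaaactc
Ifi203 (chr1:173942503-173942542, minus strand): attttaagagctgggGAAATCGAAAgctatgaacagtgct
Trim30a (chr7:104465205-104465244, minus strand): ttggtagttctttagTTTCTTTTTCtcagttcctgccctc

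Ifit1, Ifit3 and Ifit3b each held 2 copies of the element, and Isg15 held 3 that overlap in a single run. The Ifit3 and Ifit3b stretches were identical, and the longest transcripts of these genes were 98.0% identical over 1697 aligned bases, so their UMIs could be exchanged or lost in counting and both levels are uncertain. Samd9l, Slfn2 and Ifi47, the named genes with the smallest such ratios, had no match in these windows.

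Intracellular defence genes made up the bulk of the interferon transcripts in NK-like cells, while the classical effector Isg15 was of middling level and Ifit1 was rare. The 5 highest genes held 53.2% of the summed level, 4 genes lay above 100 CPM and 9 below 5 CPM. Ifi203, a cytosolic DNA-binding protein (chromosome 1, 173920407 to 173942672), was highest, at 345 CPM in the control library (339 to 351) and 250.1 CPM in the DR library (244 to 256). Next came Slfn2, a Schlafen protein needed for lymphocyte quiescence (chromosome 11, 83065112 to 83070678), at 304 and 269 CPM. The GTPase gene Ifi47 stood at 184 and 171 CPM. Samd9l, an inhibitor of translation, stood at 152 and 135 CPM, and Trim30a, a ubiquitin ligase family member, at 102 and 77.9 CPM. These 5 are the genes any sum over the list mostly reads. Below them, in falling order of the mean of both libraries, lay Parp14 (an ADP-ribosyltransferase), Ifi35, Slfn8, the RNA sensor Ddx58 (RIG-I), the nucleic acid sensor Zbp1, Irf9, Xaf1 (a pro-apoptotic factor), Dtx3l, Irf7 and Bst2 (tetherin). Irgm1, Parp9, Isg15, Herc6, Igtp, Gbp2 and Rtp4 completed the 22 genes of at least 20 CPM.

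The other 19 genes fell below 20 CPM. Stat2 stood at 19.4 and 17.0 CPM, and Ifit2 at 19.5 and 13.8 CPM. The RNA sensors Ifih1 (MDA5) and Dhx58 (LGP2) were at 10.4 and 10.3 CPM and at 7.03 and 6.87 CPM. Usp18, which removes Isg15 from proteins and restrains the receptor, was at 10.8 and 5.15 CPM. At the low end, Rsad2 (viperin) was at 2.88 and 0.823 CPM, Slfn1 at 1.35 and 1.36 CPM, and Ifit3b at 0.604 and 0.143 CPM from 22 and 4 UMIs. The plot of levels in NK-like cells shows that the order of the genes was similar in both libraries and that most DR points lay to the left of control.

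**Figure D1:**
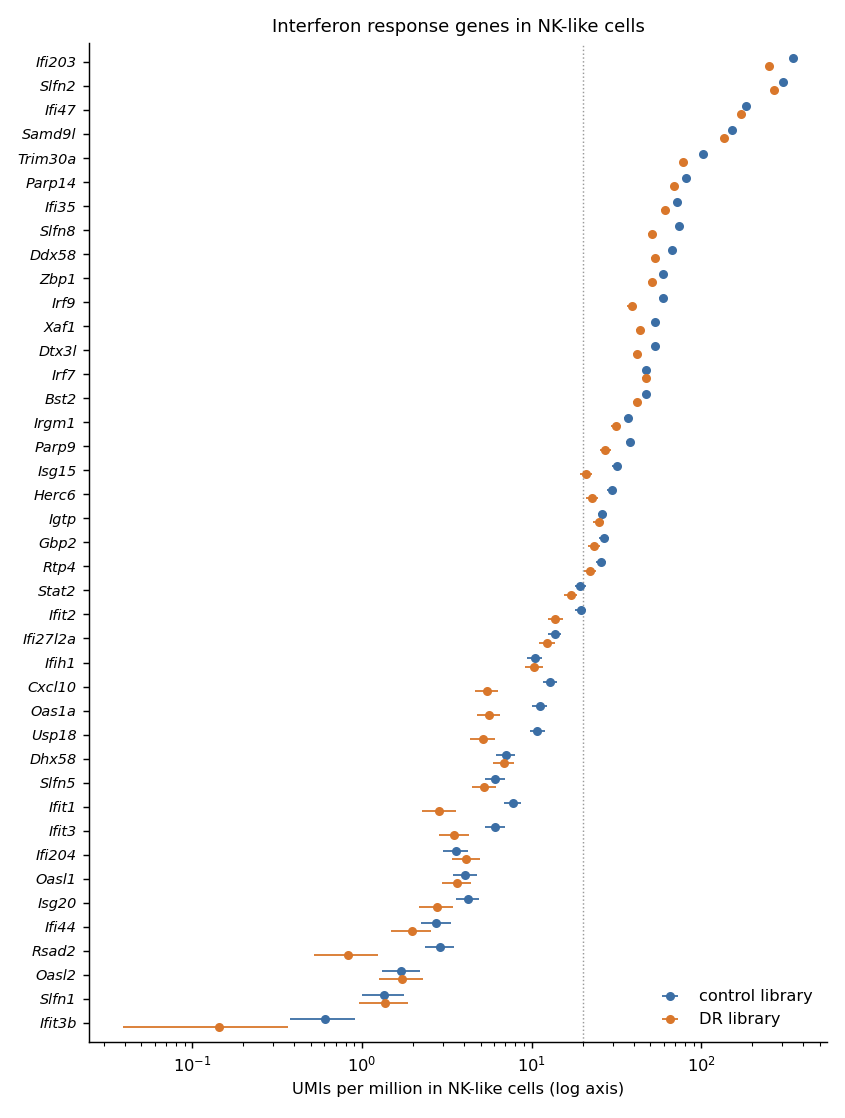
UMIs per 1000000 (log axis) of the 41 genes in NK-like cells, ordered by the mean of both libraries, with exact Poisson 95% intervals; the dotted line marks 20 CPM. Ifi203 was highest, at 345 CPM in the control library and 250.1 CPM in the DR library, and Ifit3b lowest.

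In NK-like cells the interferon genes were lower in the DR library or near the control level, and none was higher by the limits used. Genes with a mean of 20 CPM or more were sorted by size alone, as higher when at least 25% above control and as lower when at least 20% below it, provided the interval of the ratio did not include 1. By that rule 9 of 22 genes were lower and 0 higher, against 8.54% of all 5867 genes lower and 3.1% higher. The median log2 ratio was -0.23 over the 22 genes and -0.067 over all genes. Under median-of-ratios scaling, which sets the median of all genes to 0, 5 of 22 were lower and 0 higher, with 4.45% and 5.39% of all genes. The summed level of the 41 genes was 2061 CPM in the control library (2046 to 2076) and 1680 CPM in the DR library (1665 to 1695), a log2 ratio of -0.29.

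Among the transcription factors, Irf9 fell from 59.1 CPM (56.7 to 61.7) to 38.8 CPM (36.6 to 41.2), a log2 ratio of -0.61 (-0.71 to -0.50). Stat2, which acts in a complex with it, was closer to control, with a log2 ratio of -0.19 (-0.36 to -0.022). Irf7, which drives interferon-α transcription, was at 47.2 and 47.4 CPM, a log2 ratio of 0.004 (-0.10 to 0.11). Irf9 and Irf7 therefore lay at the 2 ends of the 22 genes.

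Of the sensors, Ddx58 was lower, at 67.0 and 53.2 CPM (log2 ratio -0.33, -0.43 to -0.24), whereas Zbp1 lay between the limits at 59.7 and 51.4 CPM. Ifih1 and Dhx58, both below 20 CPM, had log2 ratios of -0.010 and -0.034. Ifi203 was lower, with a log2 ratio of -0.46 (-0.51 to -0.42), and it is the gene with the tightest interval. Ifi204, a relative on the same chromosome, was at 3.57 and 4.11 CPM.

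Among effectors, Isg15, a ubiquitin-like modifier, went from 31.7 CPM (29.9 to 33.6) to 20.9 CPM (19.3 to 22.7), a log2 ratio of -0.60 (-0.75 to -0.46). Parp9 and Dtx3l, whose proteins act as a complex and whose genes overlap by 682 bases on opposite strands of chromosome 16, were both lower, with log2 ratios of -0.48 (-0.61 to -0.36) and -0.36 (-0.46 to -0.25). Herc6, the ligase for Isg15, had -0.38 (-0.53 to -0.24) and Trim30a -0.39 (-0.46 to -0.31). Within the Schlafen family, which lies in 171322 bases of chromosome 11, Slfn8 was lower at 73.5 and 50.9 CPM (log2 ratio -0.53, -0.62 to -0.44) and Slfn2 lay between the limits (-0.18, -0.22 to -0.13). Bst2, Rtp4, Xaf1, Ifi35, Parp14 and Samd9l also lay between the limits, with log2 ratios of -0.29 to -0.16. Median-of-ratios scaling left Irf9, Isg15, Slfn8, Parp9 and Ifi203 as lower and moved Trim30a, Herc6, Dtx3l and Ddx58 between the limits. The 4 interferon-inducible GTPases, Ifi47, Irgm1, Igtp and Gbp2, all lay between the limits, with log2 ratios from -0.24 to -0.074.

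The lowest ratios were those of rare genes below 20 CPM. Rsad2 came from 105 control and 23 DR UMIs (log2 ratio -1.81, -2.53 to -1.15) and Ifit1 from 282 and 80 UMIs (-1.44, -1.81 to -1.07). Cxcl10, a chemokine that draws cells bearing Cxcr3, came from 468 and 152 UMIs (-1.24, -1.52 to -0.97). Usp18 had -1.07 (-1.36 to -0.79) and Oas1a, which makes the activator of an antiviral RNase, went from 11.1 to 5.58 CPM (log2 ratio -0.996, -1.27 to -0.73). Ifit3b had -2.08 (-4.08 to -0.52). Over all 41 genes, 37 had a log2 ratio below 0, and 30 had an interval wholly below 0 against 0 wholly above.

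Depth and cell mix moved with the library. The median NK-like cell held 7129 UMIs in control and 5461 in DR, and the median mitochondrial share of all barcodes was 1.63% and 2.57%. With every cell thinned to 3000 UMIs, a mean of 4.64 of the 41 genes was seen per control NK-like cell and 3.93 per DR cell. The largest NK-like cluster was a different one in each library. A cluster led by Cx3cr1 and Klrg1 held 45.8% of control and 11.4% of DR cells, one led by Mcam and Ly6c2 held 12.3% and 41.8%, and one led by Ccr2 and Ctla2a held 32.2% and 37.8%. The summed level was lower in the DR library in all 6 NK-like clusters, at 1998 and 1684 CPM in the Cx3cr1-led and 2196 and 1720 CPM in the Mcam-led cluster. Summed over their lists, markers of mature NK cells went from 2294 to 1491 CPM, those of immature NK cells from 1269 to 1894 CPM and those of cycling cells from 208 to 87.8 CPM. B cell markers went from 78.5 to 308 CPM and plasma cell markers from 67.0 to 146 CPM. The part of these markers in the interferon difference was not tested.

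The rest of the pathway was read from lists of 105 genes that are not among the 41, of which 57 reached 20 CPM. Ifnar1 was at 77.2 and 80.8 CPM and Ifnar2 at 103 and 100.4 CPM, and both lay between the limits, as did Jak1 and Tyk2. No UMI of Ifnb1, Ifna1, Ifna2, Ifna4, Ifne or Ifnk was counted, which allows up to 0.0824 CPM for each in control and 0.107 CPM in DR NK-like cells. Ifng was at 59.5 and 52.7 CPM. Of the sensors and adaptors, 5 reached 20 CPM (Tmem173, Myd88, Tbk1, Irf3 and Irf1) and all lay between the limits. Among 6 restraining genes, Socs1, which blocks Jak kinases, was higher in DR cells at 62.8 and 104 CPM (log2 ratio 0.73, 0.65 to 0.81), and Adar, an RNA editing enzyme, was lower at 29.0 and 23.0 CPM, a call lost under median-of-ratios scaling. Of 40 other interferon-induced genes, 9 were lower and 1 higher, with a median of -0.18, beside the 8.54% and 3.1% of all genes. Under median-of-ratios scaling 7 of them were lower and 2 higher. Slfn9 (-0.62, -0.79 to -0.46), the kinase gene Eif2ak2 (-0.55, -0.68 to -0.41) and Ifi206 (-0.50, -0.59 to -0.42) were the lowest, and the single higher gene was Ly6e (0.72, 0.69 to 0.76).

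A few NK-like cells carried many of these transcripts at once. At 3000 UMIs per cell the median NK-like cell showed 4 of the 41 genes, and the cells with the most showed 29 in the control and 27 in the DR library. Cells with 10 or more, called many-gene cells below, numbered 100 of 4381 in the control library (2.28%, exact Clopper-Pearson interval 1.86 to 2.77) and 43 of 4316 in the DR library (0.996%, 0.722 to 1.34). The limit is the median plus 4 scaled median absolute deviations, and it cuts a continuous range, since 76 control and 46 DR cells showed 9 of the genes and 41 and 16 showed 10. At 15 or more genes, past most of that range, there were 22 control cells (0.502%, 0.315 to 0.759) and 12 DR cells (0.278%, 0.144 to 0.485), whose intervals overlap. The plot of genes seen per cell shows the shifted bulk of the DR cells and a sparse tail in both libraries.

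**Figure D2:**
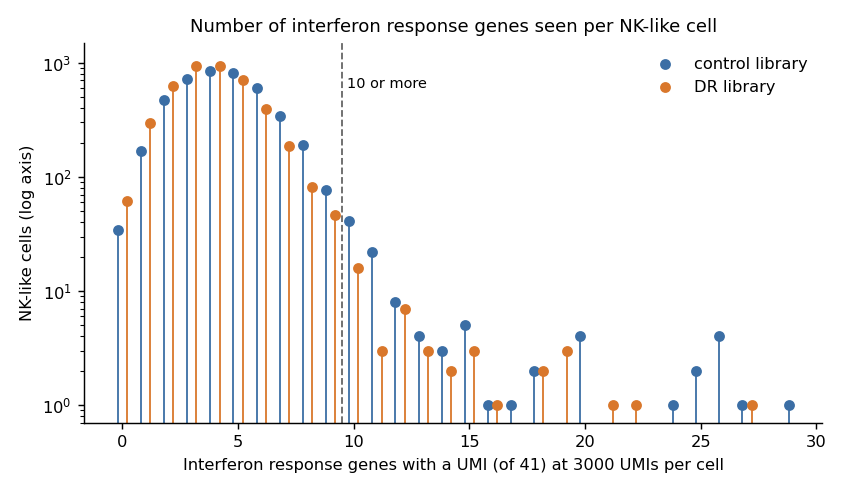
Number of NK-like cells (log axis) by how many of the 41 genes had a UMI after each cell was thinned to 3000 UMIs; the dashed line marks 10 or more. The control tail reached 29 genes and the DR tail 27.

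Control many-gene cells held 8.86% of the interferon UMIs and 2.40% of all UMIs, and those of the DR library 4.42% and 1.08%. Their summed level was 7609 CPM against 1923 CPM in the other control cells, and 6848 against 1623 CPM in the DR library, a consequence of how they were picked. The genes differed in how far they sat in these cells, as shares of their UMIs in cells of at least 3000 UMIs. For Cxcl10 the share was 91.0% in control cells and 92.8% in DR cells. Rsad2 had 68.6% and 30.4%, Ifit1 66.5% and 40.5%, Ifi204 62.0% and 25.9%, Ifit3 50.5% and 32.7%, and Isg15 39.7% and 17.3%. Isg20 (42.0% and 19.7%), Ifi44 (41% and 18.2%) and Slfn5 (36.4% and 23.3%) were in the same range. At the other end were Samd9l (4.34% and 2.34%), Slfn2 (4.81% and 2.33%), Ifi47 (5.46% and 2.45%), Ifi203 (5.58% and 3.20%) and Irf9 (5.79% and 3.92%). The first set can be called concentrated and the second basal, with Irf7, Bst2 and Rtp4 between them. These names describe the shares alone. Each gene counted toward picking the cells, which raises the share of a rare gene more than that of a gene seen in most cells. Promoters with and without the response element were found in both sets, with a median log2 ratio of many-gene over other cells of 2.63 in 18 genes and 2.23 in 15.

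**Figure D3:**
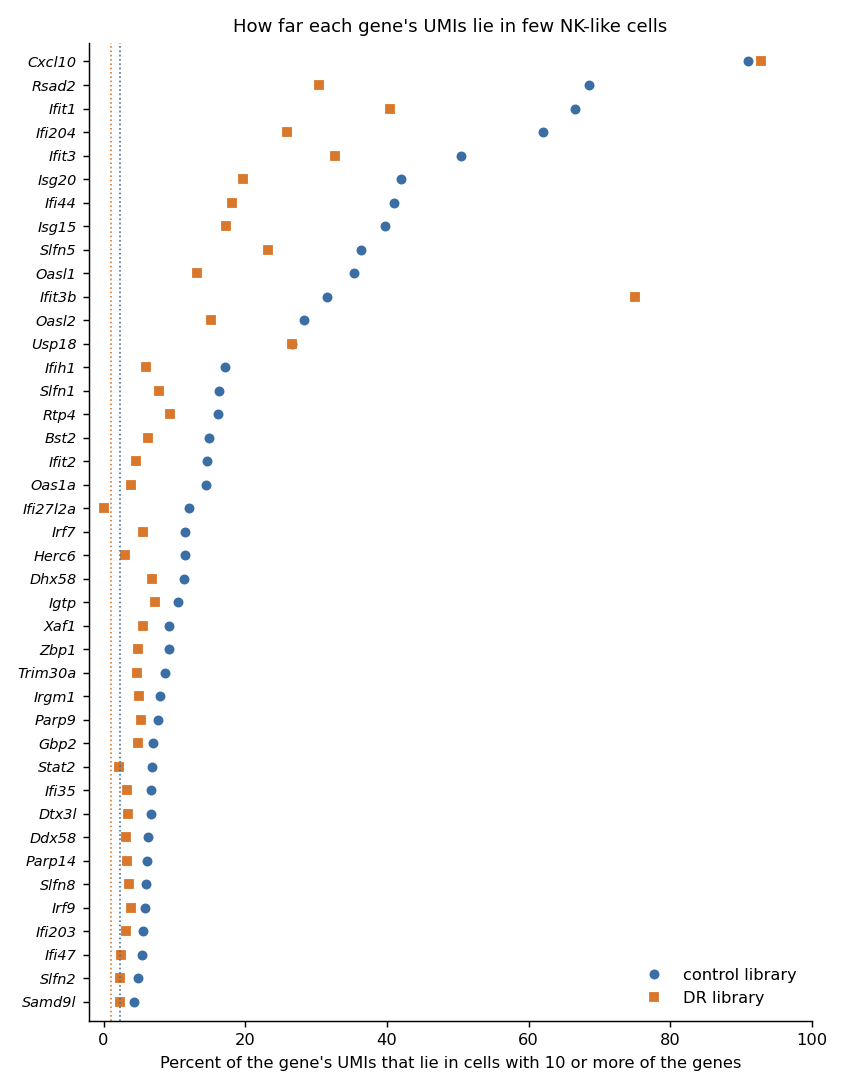
Percent of each gene's UMIs that lay in NK-like cells with 10 or more of the 41 genes, by library; dotted lines mark these cells' shares of all UMIs, 2.40% in control and 1.08% in DR. Cxcl10 lay above 90% in both libraries and Samd9l, Slfn2 and Ifi47 at the bottom in control; the DR value of Ifit3b rests on 4 UMIs.

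To read the genes without the choice, cells were picked on every other gene of the list and the remaining genes were measured. Picked on the genes in odd places of the list, 25 control and 15 DR cells showed a mean of 9.84 and 8.27 of the other 20 genes, against 3.19 and 2.73 in the rest. All 20 were higher by the size limits in both libraries. Among them Rsad2, Isg20 and Ifi44 had log2 ratios of picked over other cells from 4.33 to 7.87 across both libraries. Samd9l, Slfn2, Ifi47, Ifi203 and Irf9, called basal above, had 1.06 to 2.05. Picked on the genes in even places, 24 control and 9 DR cells showed 7.88 and 7.56 of the other 21 genes against 1.37 and 1.17, and 20 and 18 genes were higher. The genes thus occurred together in the same cells.

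Genes outside the list moved with them. Among the 40 other interferon-induced genes that reached 20 CPM over all NK-like cells, 33 were higher in many-gene cells of both libraries and 0 lower, against 2.2% of 5867 genes higher and 0.716% lower. The guanylate-binding gene Gbp6, below 20 CPM over all NK-like cells, was at 65.9 CPM against 10.7 CPM in control and 93.8 against 7.01 CPM in DR cells. Eif2ak2 was at 124 against 32.5 CPM and 127 against 22.7 CPM. Tgtp2, Irgm2, Ifi208, Ifi213, Ifi206, Rnf213, Phf11a, Trim30d and Serpina3g were also among the 12 genes outside the list that ranked first by the lower bound of the ratio, among genes of at least 50 CPM in many-gene cells. The restraining genes Socs1 and Samhd1 were higher too, with Socs1 at 138 against 61.1 CPM and 214 against 103 CPM. Ifng was at 108 against 57.8 CPM and 114 against 52.1 CPM, while Ifnar1 and Ifnar2 lay between the limits.

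Many-gene and other cells had median depths of 7304 and 7257 UMIs in control and 6021 and 5569 UMIs in DR cells. Their mean doublet scores were 5.64% against 4.58% in control and 4.76% against 3.74% in DR cells. NK markers summed to 19204 CPM in many-gene against 21171 CPM in other control cells, and to 15370 against 18464 CPM in DR cells. Markers of immature NK cells summed to 1915 against 1257 CPM in control and 2324 against 1901 CPM in DR cells, and cycling markers to 103 against 212 CPM and 13.4 against 88.2 CPM. The 8 ILC1 markers summed to 415 against 170 CPM in control, 6 of 8 lying above the other cells and 1 at 0, and to 542 against 263 CPM in DR cells, 5 of 8 above and 3 at 0. A UMI of any ILC1 marker was seen in 43% of many-gene and 25.2% of other control cells and in 51.2% and 33.5% of DR cells, while the median of these UMIs per 10000 was 0 in both kinds of control cell and, in DR cells, 1.5 in many-gene against 0 in other cells. B markers summed to 75.2 against 60.8 CPM in control and 67.0 against 297 CPM in DR cells. The part of these markers and of doublets in the interferon pattern was not tested.

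Cxcl10 came almost wholly from single cells. In the control library 27 NK-like cells had a UMI and 5 of them held 416 of its 468 UMIs, with 125, 104, 84, 62 and 41 UMIs each. All 5 lay in the cluster led by Ccl4, Nr4a1 and Egr1, activation-induced genes, which held 2.01% of control NK-like cells, and they showed 18 to 29 of the 41 genes. In the DR library 19 cells had a UMI and 1 cell of the Batf3-led cluster held 103 of 152. Without the 5 cells with most UMIs in each library, Cxcl10 was at 1.43 and 0.681 CPM. The interval of its DR ratio therefore does not describe how it would vary between mice.

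The DR ratios were also read with the many-gene cells left out, 100 in control and 43 in DR. These cells were picked on the same genes, by a cut through a continuous range that took more control cells. Leaving them out can by itself move a ratio toward 0, so the values do not separate a basal difference from the rest. Cells too shallow to be picked, 192 in control and 195 in DR, were kept. Irf9 then had a log2 ratio of -0.60 (-0.71 to -0.49), Ifi203 of -0.45 (-0.49 to -0.40), Slfn8 of -0.52 (-0.61 to -0.42) and Parp9 of -0.47 (-0.60 to -0.33), each close to the value over all cells. Of the 9 lower genes 6 were still called. Isg15 moved to -0.17 (-0.34 to -0.0008), Herc6 to -0.27 (-0.42 to -0.12) and Ddx58 to -0.31 (-0.40 to -0.21), inside the limits. Of the rare genes, Usp18 and Oas1a were at -1.09 (-1.43 to -0.76) and -0.85 (-1.13 to -0.57), Ifit1 at -0.62 (-1.16 to -0.11) and Rsad2 at -0.68 (-1.64 to 0.22). Ifi204 moved up, from 0.20 to 1.14 (0.62 to 1.68), at 1.41 and 3.11 CPM. Over the 41 genes 33 still had a ratio below 0, with 24 intervals wholly below 0 and 1 above, and the summed level had a log2 ratio of -0.25.

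**Figure D4:**
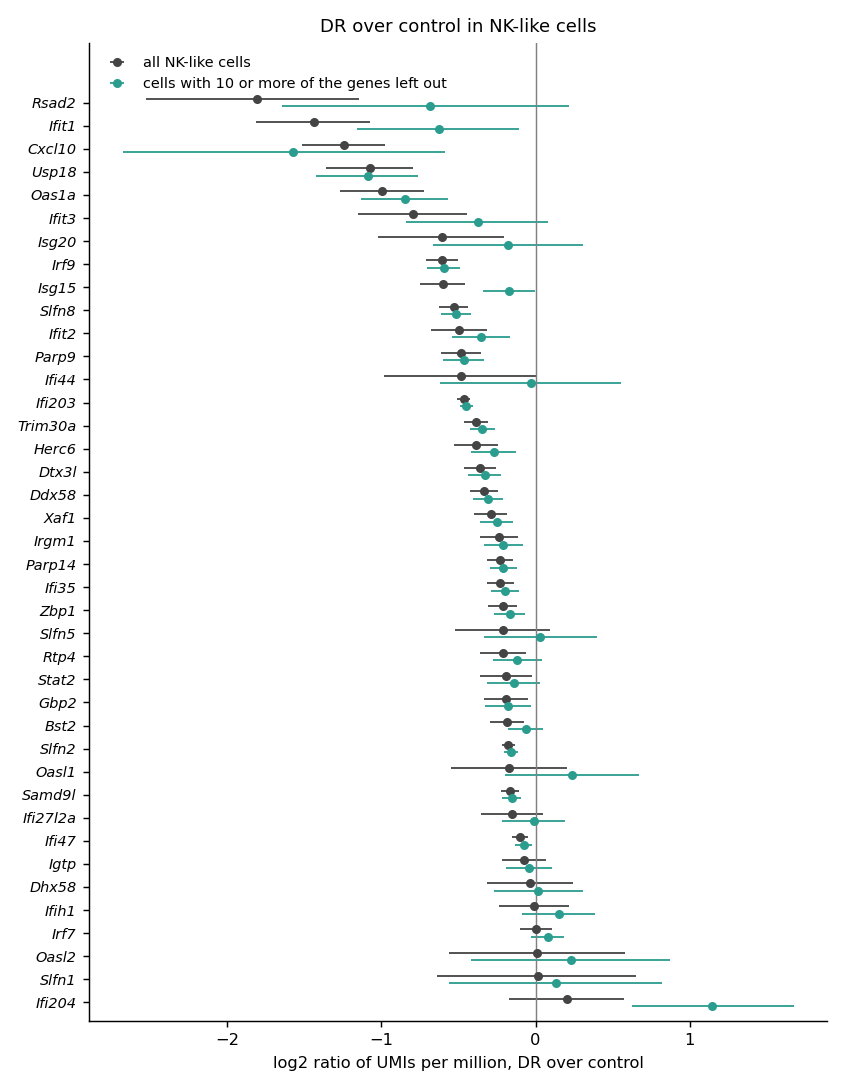
Log2 ratio of DR over control UMIs per 1000000 in NK-like cells with exact 95% counting intervals, over all cells and with cells of 10 or more of the genes left out; Ifit3b, with 4 DR UMIs, is not drawn. Irf9, Ifi203, Slfn8 and Parp9 kept their values, and Isg15 moved from -0.60 to -0.17.

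NK cells mature from Cd27-bearing to Itgam (CD11b)-bearing cells, and the interferon genes as a sum were nearly level over these stages. By at least 1 UMI of each marker, control NK-like cells comprised 628 with Cd27 only, 1051 with both, 2225 with Itgam only and 669 with neither, and DR cells 915, 976, 1570 and 1050. The summed level was 2067, 2085, 2020 and 2150 CPM in that order in control and 1694, 1676, 1691 and 1651 CPM in DR cells. Every control stage lay above every DR stage. Median depth fell from 9253 UMIs in Cd27-only to 6689 UMIs in Itgam-only control cells, and from 7062 to 5029 UMIs in DR cells.

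Single genes did follow the stages, in both directions. Between Cd27-only and Itgam-only cells, 3 of 22 genes were higher and 1 lower in Cd27-only cells in both libraries, against 6.21% of 5876 genes higher and 12.1% lower. With higher and lower calls pooled, the share of the 22 genes called was near the share of all genes. Bst2, which tethers virions to the cell surface, was at 65.5 against 36.0 CPM in control (log2 ratio 0.86, 0.68 to 1.05) and 51.8 against 32.7 CPM in DR cells (0.66, 0.43 to 0.89). Rtp4 was at 29.1 against 21.7 CPM and 26.1 against 19.3 CPM, and the GTPase gene Igtp at 31.8 against 22.7 CPM and 29.5 against 23.0 CPM. Samd9l ran the other way, at 113 against 171 CPM in control (-0.60, -0.73 to -0.48) and 98.0 against 161 CPM in DR cells (-0.72, -0.85 to -0.58). For Bst2 and Samd9l, cells with both markers lay between, at 48.8 and 152 CPM in control and 41.9 and 145 CPM in DR cells. Isg15 and Irf7 were slightly above in Cd27-only cells of both libraries, at log2 ratios of 0.31 and 0.23 for Isg15 and 0.23 and 0.28 for Irf7, inside the limits.

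Many-gene cells were found in every stage. In control they were 3.07% of Cd27-only cells (1.86 to 4.76), 1.82% of cells with both markers (1.10 to 2.82), 1.95% of Itgam-only cells (1.41 to 2.63) and 3.54% of cells with neither (2.18 to 5.41). In the DR library the shares were 1.44%, 0.831%, 0.865% and 0.948%, with overlapping intervals among the stages.

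DR over control, genes of the list were called lower in each stage, with the highest count in cells with neither marker, the shallowest group. In Cd27-only cells 8 of 23 genes were lower and 1 higher (11.2% and 4.49% of all genes), and in cells with both markers 9 of 22 were lower and 0 higher (10.1% and 4.92%). In Itgam-only cells 8 of 23 were lower and 0 higher (8.56% and 4.56%), and in cells with neither marker 14 of 23 were lower and 0 higher (10.5% and 4.51%). The median log2 ratio was -0.45 in cells with neither marker and -0.29 to -0.20 in the other stages; the difference between stages was not tested. The gene higher in Cd27-only cells was Ifi27l2a, at 17.0 and 24.8 CPM. Over all NK-like cells, up to 92 control and 91 DR UMIs of Ifi27l2a lay in 1 cell. The cycling cluster held 41.7% of its NK-like UMIs in control and 60.9% in DR, more than any other NK-like cluster. In that cluster the B cell transcript Igkc was at 140 CPM in control cells, against 13716 CPM in DR cells, and Ncr1 stood at 872 and 336 CPM; their part in the Ifi27l2a level was not tested. Without this cluster the summed log2 ratio was -0.29 and 8 of the genes were lower.

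ILC1-like cells, group 1 innate lymphoid cells with Il7r and Cxcr6 that are close relatives of NK cells, had more of the interferon transcripts than NK-like cells. They summed to 2865 CPM (2798 to 2933) for control mice and to 2213 CPM (2160 to 2266) for DR mice. In both libraries 11 of 23 genes were higher than in NK-like cells and 0 lower, against 10.4% of 5980 genes higher and 7.88% lower. Of these 11, Ifi27l2a was below 20 CPM in NK-like cells and passed the minimum through ILC1-like cells. Ifi203 was at 596 CPM (566 to 627) and 392 CPM (370.1 to 415), and Bst2 at 117 and 83.2 CPM. Igtp was at 62.0 and 58.2 CPM, against 26.1 and 24.8 CPM in NK-like cells (log2 ratio 1.23 in DR, 0.98 to 1.47). Isg15 (72.7 and 40.5 CPM), Rtp4 (57.5 and 37.5 CPM), Herc6, Ddx58, Gbp2, Irgm1, Dtx3l and Ifi27l2a were the others. Many-gene cells made up 10.8% of control ILC1-like cells (29 of 269, 7.34 to 15.1) and 3.79% of DR ILC1-like cells (15 of 396, 2.14 to 6.17). The limit of 10 was set on NK-like cells and lay nearer the bulk of ILC1-like cells, whose medians were 6 and 5 genes. At 15 or more genes there were 4 control ILC1-like cells (1.49%, 0.407 to 3.76) and 3 DR ILC1-like cells (0.758%, 0.157 to 2.20). These intervals overlap those of NK-like cells at 15 or more genes. Without many-gene cells the ILC1-like sum was 2542 CPM against 1923 CPM in control NK-like cells and 2013 against 1623 CPM in the DR library.

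In B-like cells single genes of the list lay far from their NK-like level. Ifi27l2a, a small membrane protein gene, stood at 841 CPM in B-like cells of the control library (792 to 893) and 340.2 CPM in those of the DR library (322 to 359), against 13.7 and 12.3 CPM in NK-like cells. Slfn5, Stat2 and Irgm1 were also higher in both libraries, and Ifi47, Zbp1, Parp14, Dtx3l and Igtp were lower. The 4 of 25 genes higher are a share near the 14.3% of all 5774 genes, and the 5 lower a smaller share than the 38.4% of all genes. Ifi27l2a, Slfn5 and Stat2 were below 20 CPM in NK-like cells and passed the minimum through B-like cells. Ifi47 stood at 62.7 and 55.5 CPM, log2 ratios over NK-like cells of -1.55 and -1.62. No Cxcl10 UMI was found in control B-like cells, which allows up to 2.32 CPM.

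T-like cells could be read in the DR library alone. There 9 of 25 genes were higher than in NK-like cells and 3 lower, against 12.3% of 5611 genes higher and 46.4% lower. Slfn1, Slfn5 and Ifi27l2a were below 20 CPM in NK-like cells and passed the minimum through T-like cells. Slfn1, a Schlafen gene first known from thymocytes, was at 155 CPM (140 to 172) against 1.36 CPM, and its neighbour Slfn5 at 69.7 CPM against 5.26 CPM. Ifi27l2a was at 510.4 CPM, and Igtp, Bst2, Irgm1, Slfn2, Irf9 and Gbp2 were higher as well. Samd9l, Xaf1 and Irf7 were lower, with Samd9l at 87.1 CPM against 135 CPM. The plot of levels by cell class shows Ifi203 and Slfn2 present in all classes, and Slfn1 and Ifi27l2a set apart by class.

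**Figure D5:**
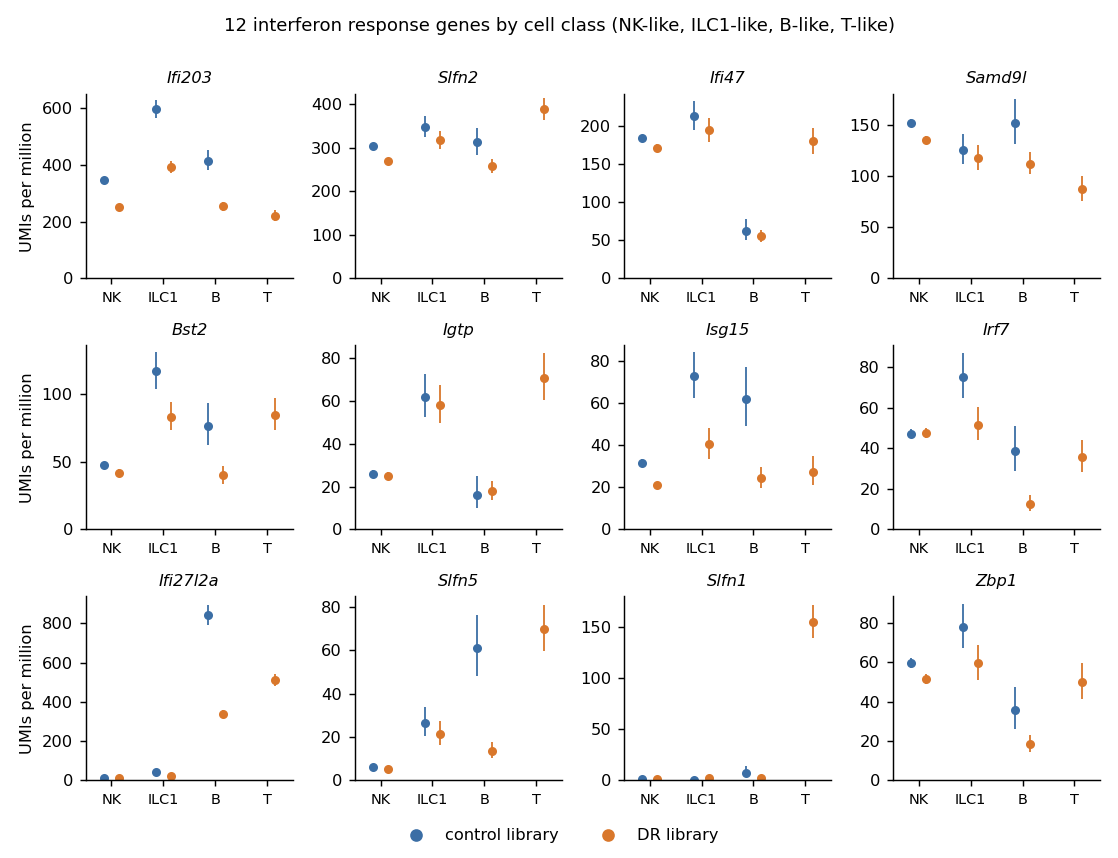
UMIs per 1000000 of 12 of the genes in NK-like, ILC1-like, B-like and T-like cells of each library with exact Poisson 95% intervals; T-like cells of the control library, 3 cells, are not drawn. Slfn1 was at 155 CPM in T-like cells and near 0 elsewhere, and Ifi27l2a at 841 CPM in control B-like cells.

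The lower levels in the DR library were seen in ILC1-like and B-like cells as well. In ILC1-like cells 14 of 24 genes were lower and 0 higher (9.81% and 4.62% of all genes), with a median log2 ratio of -0.39 against -0.057 for all genes. In B-like cells 17 of 25 were lower and 0 higher (9.26% and 4.13%), with medians of -0.71 and -0.047. Irf7, which differed little in NK-like cells, was at 75.2 and 51.6 CPM in ILC1-like cells (log2 ratio -0.54, -0.86 to -0.23) and at 38.7 and 12.6 CPM in B-like cells (-1.62, -2.22 to -1.01). Irf9 was lower in all 3 classes, with log2 ratios of -0.55 in ILC1-like and -0.95 in B-like cells. Ifi203 likewise had -0.60 and -0.71. Control B-like cells numbered 115, so 11 many-gene cells among the 109 of at least 3000 UMIs weigh on their levels. Without many-gene cells the B-like sum was 2382 CPM in control and 1539 CPM in the DR library. Plasma cell markers summed to 860 CPM in control and 2196 CPM in DR B-like cells, and B cell markers to 26522.6 and 28834.5 CPM. The part of this mix in the B-like ratios was not tested. The differences between classes in their DR ratios were not tested.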

How the data were processed

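The authors deposited raw UMI counts, as 1 matrix of genes by barcodes for each library. Per the file headers they were made with Cell Ranger 5.0.1, whereas the submitters' processing notes name Cell Ranger 2.1.1 and mm10; the labels' protocols name the 10x Genomics Chromium Next GEM 3' kit. No deposited barcode has fewer than 501 UMIs, so free RNA in droplets could not be measured.

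Kept barcodes had 500 or more genes and no more than 10% mitochondrial UMIs (5487 control, 6120 DR). Doublets were scored by the Scrublet method (2000 genes, 30 components, 2 simulated doublets per cell). Its automatic threshold marked only 3 and 6 cells, too few to be useful, so the top scores were removed at 0.8% per 1000 cells with ties, 280 control and 319 DR cells. Both libraries were clustered together without the 41 genes (scanpy 1.11.5, 2000 variable genes, 30 components, 15 neighbours, Leiden resolution 0.6, 13 clusters). A cluster was named when at least 3 markers and 50% of a list were at 20 CPM or more and at 25% of the highest cluster. Clusters rebuilt this way may differ from the authors' own. 3 clusters (241 control, 155 DR cells) stayed unnamed and out of the classes. UMIs were summed per class or stage and library. Intervals, all at 95%, are exact Poisson for CPM, conditional binomial for ratios and Clopper-Pearson for shares.

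Named genes were the 12 highest, up to 6 with the largest DR and stage ratios, up to 8 with the largest many-gene ratio, 4 per class contrast and 9 always. The genes, lists, markers and tests were chosen with earlier results of these data known. Positions are from GENCODE M21 (GRCm38).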

Additional observations from a re-analysis of the deposited data

How the results depend on the processing

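With 1 library per group the spread between mice is unknown, and no alternative bears on it. No paired analysis was possible because each group has 1 library. The summed log2 ratio of DR over control in NK-like cells was -0.29 and kept its sign throughout. It was -0.23 under median-of-ratios scaling, -0.23 with ribosomal and mitochondrial genes left out of the total, -0.25 without many-gene cells and -0.27 by single-cell gating. The count of 9 lower genes became 5 under median-of-ratios scaling, 14 with a minimum of 5 CPM, 18 with no minimum and 2 at a ratio of 1.5. No gene was called higher under any of these settings. For single genes, 163 of 171 values over 19 genes stayed on the same side of the limits, 7 no longer passed them and 1 newly did, and none changed sign among called genes. The summed ratio of Cd27-only over Itgam-only DR cells, 0.003, became -0.048 when a marker needed 2 UMIs.

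The ILC1-like over NK-like log2 ratio of the sum, 0.48 in control, was 0.40 without many-gene cells. In the DR library it was 0.40, 0.33 by gating and 0.31 without many-gene cells. The B-like ratio in control, 0.53, was 0.65 by gating and 0.31 without many-gene cells, and in the DR library it went from 0.03 to -0.079 without them. The T-like ratio went from 0.62 to 0.46 without them. The share of many-gene cells, 2.28% in control and 0.996% in DR, was 4.02% and 2.06% with a limit of 3 scaled deviations and 0.845% and 0.556% with 5. It was 1.68% and 0.466% at full depth, 1.12% and 0.519% at 2000 UMIs, and 0.502% and 0.278% at 15 or more genes. DR was the lower library under each. The cause of these changes was not tested. The settings without the cycling cluster, with the unnamed cluster, with 15 or more genes, without many-gene cells in the classes, and the minimum over all NK-like cells for genes outside the list were chosen after seeing the data.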

Other observations

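A shallow cluster (151 control cells with a median of 2207 UMIs, 45 DR cells with 3199) stayed unnamed although it carried NK markers, and Cxcl10 and Isg15 were among its leading genes. All 53 of its Cxcl10 UMIs lay in 1 control cell, and 20 of its 47 control Isg15 UMIs in 1 cell, while its 45 DR cells had 0 and 2 UMIs. Its summed interferon level, 1889 CPM in control and 1420 CPM in the DR library, was below that of NK-like cells of the same library.

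Cxcl10 in control ILC1-like cells came mainly from 1 of 274 cells, with 54 of 60 UMIs. In the DR library 9 of 404 ILC1-like cells shared 26 UMIs, with at most 9 in 1 cell. Ifi204 in ILC1-like cells was at 16.8 and 10.9 CPM, above the 3.57 and 4.11 CPM of NK-like cells, and Lyz2, a gene of myeloid cells, was also higher there, at 9.45 and 29.9 CPM against 2.69 and 3.47 CPM. The part of myeloid RNA in the Ifi204 level was not tested.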
